A study of Mus musculus with 2 samples.

Results

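The bone morphogenetic protein (BMP) and transforming growth factor beta (TGF-beta) genes were examined in RNA-seq libraries of mouse small intestine crypts, the epithelial pits that house stem cells. Members were taken by symbol: the Bmp, Gdf, Tgfb and inhibin ligands, the Bmpr, Tgfbr and Acvr receptors, the Smads, the antagonists of the Grem, Nog, Chrd and Fst kind, Bambi, and Id1 to Id4. The rule used no measured value, though members and the lists used below were chosen with earlier results of these data known. It found 55 genes of 17216 with a row, 30 of them averaging 20 normalized reads or more across the libraries. A further 11 names that the rule would take (Bmp10, Bmp15, Bmpr1b, Chrd, Gdf1, Gdf2, Gdf5, Gdf10, Inhba, Nog and Tgfbr3l) had no row and were not analysed here. Symbols also admitted 3 genes of other function: Bmp1, a procollagen protease, Bmp2k, a kinase named for its induction by BMP2, and Tgfb1i1, a focal adhesion protein.

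The series holds 2 libraries from C57BL/6 mice, 1 labelled wild type with the genotype AhCre and 1 labelled EedKO with the genotype AhCreEedfl/fl. AhCre places Cre recombinase under a promoter that responds to the aryl hydrocarbon receptor, so Cre acts in cells where that promoter answers the inducer. Both genotypes received 3 injections of β-naphthoflavone, the inducer, and crypts were collected at 15 days. Eed is a core subunit of Polycomb repressive complex 2, which methylates histone H3 at lysine 27, and the study's title places the work in secretory lineage commitment.

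The wild-type library held 6970733 reads and the knockout library 5918162. Eed itself went from 588 reads to 183 in the library labelled EedKO, 3.08-fold lower (95% counting interval 2.61 to 3.66), so Eed transcript was still counted in the knockout library. All 11 markers of intestinal epithelium had a mean of at least 20 and lay within 2-fold, with a summed level of 29488 and 27266 normalized reads. There was 1 library per genotype, so no difference below could be tested between genotypes. Ratios are knockout over wild type after the authors' scaling, with 95% intervals that cover counting error only. They were taken on reads after 1 read, inferred to be added to every deposited value, was removed, which raises the ratios of genes with few wild-type reads. Calls were made by size: a log2 ratio (normalized values plus 1) of 1 or more in either direction, at a mean of at least 20. Reads are given wild type first.

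BMP and TGF-beta ligands are secreted dimers that bring type II and type I receptor kinases together. The type I receptor then phosphorylates receptor-regulated Smads, which enter the nucleus with the common Smad4. BMP signals pass through Smad1, Smad5 and Smad9, and TGF-beta and activin signals through Smad2 and Smad3. Smad6 and Smad7 are inhibitory Smads that the pathway induces, and the Id genes are classic BMP targets. In the intestine BMP activity is high towards the villus and is held low at the crypt base by antagonists from the mesenchyme beneath.

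Of the 30 members with a mean of at least 20, 8 were called higher in the knockout library (26.7%) and 3 lower (10%). Among all 10879 genes with such a mean, 11.2% were called higher and 3.58% lower. The higher members were the ligands Bmp6, Bmp7, Gdf15, Tgfb1 and Tgfb2, the inhibin subunit Inha, the coreceptor Tgfbr3 and the target Id4. The lower ones were the ligand Bmp2 and the inhibitory Smads Smad6 and Smad7. The median log2 ratio of the 30 members was -0.19, and that of all 10879 genes -0.11.

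Both shares varied with level. Of 8 members with a mean from 20 to under 100, 5 were called higher and none lower, where 26.8% of all genes in that range were higher and 5.17% lower. Of 22 members with a mean of at least 100, 3 were higher and 3 lower (13.6% each), where all 8115 such genes gave 5.88% and 3.04%. A gene with few wild-type reads reaches the mean of 20 only through the knockout library. Of the 8 higher members, 3 (Bmp6, Tgfb2 and Tgfbr3) had a wild-type level under 20 and passed in this way, as did 566 of the 1217 higher genes. The count was therefore also taken over every member. With all 55 members, 0 reads set to a floor of 3, and genes of 3 reads or fewer in both libraries counted as neither, 15 were at least 2-fold higher and 5 lower (27.3% and 9.09%). The same count over all 17216 genes gave 14.8% and 4.81%. The 9 members with 3 reads or fewer in both libraries included Acvr1, Acvrl1, Bmp5, Bmp8a, Chrdl1, Gdf6, Gdf7 and Grem1.

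**Figure D1:**
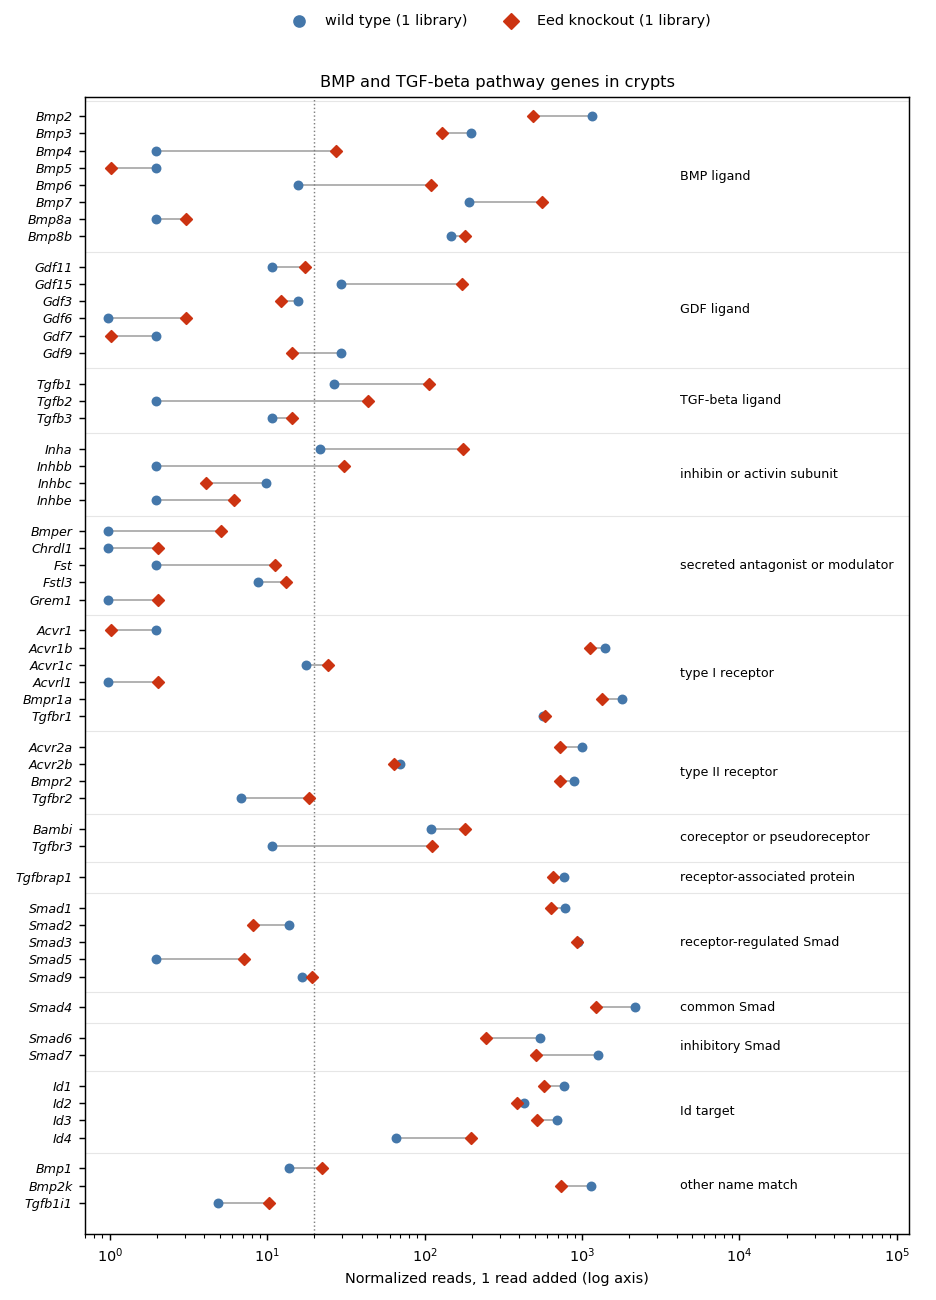
Normalized reads of 54 of the 55 members in the wild-type library (circles) and the Eed knockout library (diamonds), on a log axis and grouped by role; each value includes the 1 read that the deposited table appears to add, and the dotted line marks 20. Receptors such as Bmpr1a and Acvr1b are high in both libraries, while Tgfb2, Tgfbr3 and Inha lie far to the left of their knockout values in the wild type.

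BMP ligands split in direction. Bmp2, a BMP ligand of the differentiating intestinal epithelium, had 1187 and 475 reads, 2.40-fold lower (2.15 to 2.67). Bmp7, a ligand of many developing epithelia, had 196 and 545 reads (ratio 2.90, interval 2.46 to 3.43). Bmp6, a ligand of the same subgroup as Bmp7, known also for its part in iron balance, had 15 and 106 reads (ratio 7.37, interval 4.27 to 13.6). Per length, Bmp2 stood at 327 and 136 normalized reads per kilobase and Bmp7 at 52.3 and 152. Bmp2 was therefore the highest BMP ligand of the wild-type library, while in the knockout library Bmp2 and Bmp7 were close to each other. The summed level of all 8 BMP ligands was 1714 and 1485 normalized reads.

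The remaining BMP ligands with a mean of at least 20 lay within 2-fold. Bmp3, which antagonises other BMPs, had 199 and 126 reads, 1.52-fold lower (1.21 to 1.91), and Bmp8b had 150 and 175, at a ratio of 1.22 (0.972 to 1.52). Bmp4, the main BMP of the intestinal mesenchyme, was under the mean of 20. It had 1 and 26 reads, a ratio of 27.1 whose interval runs from 4.45 to 1111, against 14.1 in the authors' deposited table. Bmp5 had 1 and 0 reads and Bmp8a 1 and 2, which give no direction.

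TGF-beta ligands were low in the wild-type library. Tgfb1, the form best known from immune cells and wound repair, had 26 and 103 reads, a ratio of 4.13 (2.66 to 6.62). Tgfb2 had 1 and 42 reads, a ratio of 43.8 (7.44 to 1769.6), where the authors' deposited table gives 22.4. Its mean of 22.9 rests on the knockout library. Tgfb3 had 10 and 13 reads, and its interval, 0.549 to 3.45, includes 1.

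Inha, the alpha subunit that turns activin into inhibin, had 21 and 170 reads (ratio 8.44, interval 5.35 to 14.0). Inhbb, a beta subunit that forms activin B, was under the mean of 20 at 1 and 29 reads (ratio 30.2, interval 5.01 to 1234, and 15.6 in the authors' deposited table). The liver-type subunits Inhbc and Inhbe had 9 and 3 reads and 1 and 5 reads, with intervals that include 1. Gdf15, a circulating ligand induced by cellular stress that acts through the brainstem receptor GFRAL, had 29 and 169 reads, that is, 6.07 times the wild-type level (4.08 to 9.35). Gdf9, an oocyte growth factor, had 29 and 13 reads, 2.14-fold lower (1.08 to 4.49). Its log2 ratio on the scale of the rule was -0.99, so it was not called, while the called member nearest the limit was Smad6 at -1.13. Gdf3 (15 and 11 reads) and Gdf11 (10 and 16) had intervals that include 1.

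The promoters of 4 ligand genes, Bmp6, Tgfb1 and Tgfb2, which were called higher, and Inhbb, whose mean was under 20, are shown because they differ in their content of CG dinucleotides, the sequence feature on which Polycomb targets in mammals are usually found. Each window runs from 250 bases before to 50 after the RefSeq start in GRCm38.p6, which is not the authors' build, reads 5′ to 3′ on the gene's strand, and has CG in capitals. The windows are chr13:38345466-38345765 (+) for Bmp6, chr7:25686752-25687051 (+) for Tgfb1, chr1:186705940-186706239 (-) for Tgfb2 and chr1:119422199-119422498 (-) for Inhbb.
Bmp6: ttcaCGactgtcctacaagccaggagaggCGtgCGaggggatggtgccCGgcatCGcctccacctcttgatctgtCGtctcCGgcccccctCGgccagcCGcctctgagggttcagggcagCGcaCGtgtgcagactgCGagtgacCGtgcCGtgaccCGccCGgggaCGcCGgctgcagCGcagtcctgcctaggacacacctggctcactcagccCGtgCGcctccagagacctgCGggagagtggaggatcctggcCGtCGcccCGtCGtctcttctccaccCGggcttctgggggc
Tgfb1: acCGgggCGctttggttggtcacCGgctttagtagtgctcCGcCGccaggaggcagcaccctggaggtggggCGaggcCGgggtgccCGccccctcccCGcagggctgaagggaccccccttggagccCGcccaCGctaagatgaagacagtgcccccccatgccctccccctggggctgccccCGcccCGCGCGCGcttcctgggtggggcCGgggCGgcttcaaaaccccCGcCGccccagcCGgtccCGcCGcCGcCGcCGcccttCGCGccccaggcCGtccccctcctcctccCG
Tgfb2: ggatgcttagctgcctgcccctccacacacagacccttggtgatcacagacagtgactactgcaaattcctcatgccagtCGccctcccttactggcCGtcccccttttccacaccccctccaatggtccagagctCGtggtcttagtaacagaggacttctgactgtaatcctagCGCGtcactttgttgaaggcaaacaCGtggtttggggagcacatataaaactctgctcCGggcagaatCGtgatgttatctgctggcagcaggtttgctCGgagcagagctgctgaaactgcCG
Inhbb: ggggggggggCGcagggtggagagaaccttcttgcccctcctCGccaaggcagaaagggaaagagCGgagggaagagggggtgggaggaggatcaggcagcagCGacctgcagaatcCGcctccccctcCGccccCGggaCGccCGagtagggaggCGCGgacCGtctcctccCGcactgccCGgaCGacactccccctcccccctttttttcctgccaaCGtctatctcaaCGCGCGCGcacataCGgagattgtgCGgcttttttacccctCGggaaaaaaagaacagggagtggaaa

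These windows held 27 CG dinucleotides in Bmp6, 30 in Tgfb1, 10 in Tgfb2 and 23 in Inhbb. RefSeq windows were at hand for 36 of the 55 members, 42 windows in all, with a median of 26.5 CG, where all 32851 windows had a median of 7. The called members Bmp2, Bmp7, Smad7 and Tgfbr3 had no window. For genes averaging 20 or more reads, the median was 27 over 25 member windows and 20 over all 9893 windows. Dense windows were not limited to the members that differed: Bmpr1a held 48 and Acvr2a 54, while among the higher members Inha held 5 and the 2 windows of Gdf15 held 7 and 1. Chromatin was not measured in these libraries, so the windows describe sequence only.

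**Figure D2:**
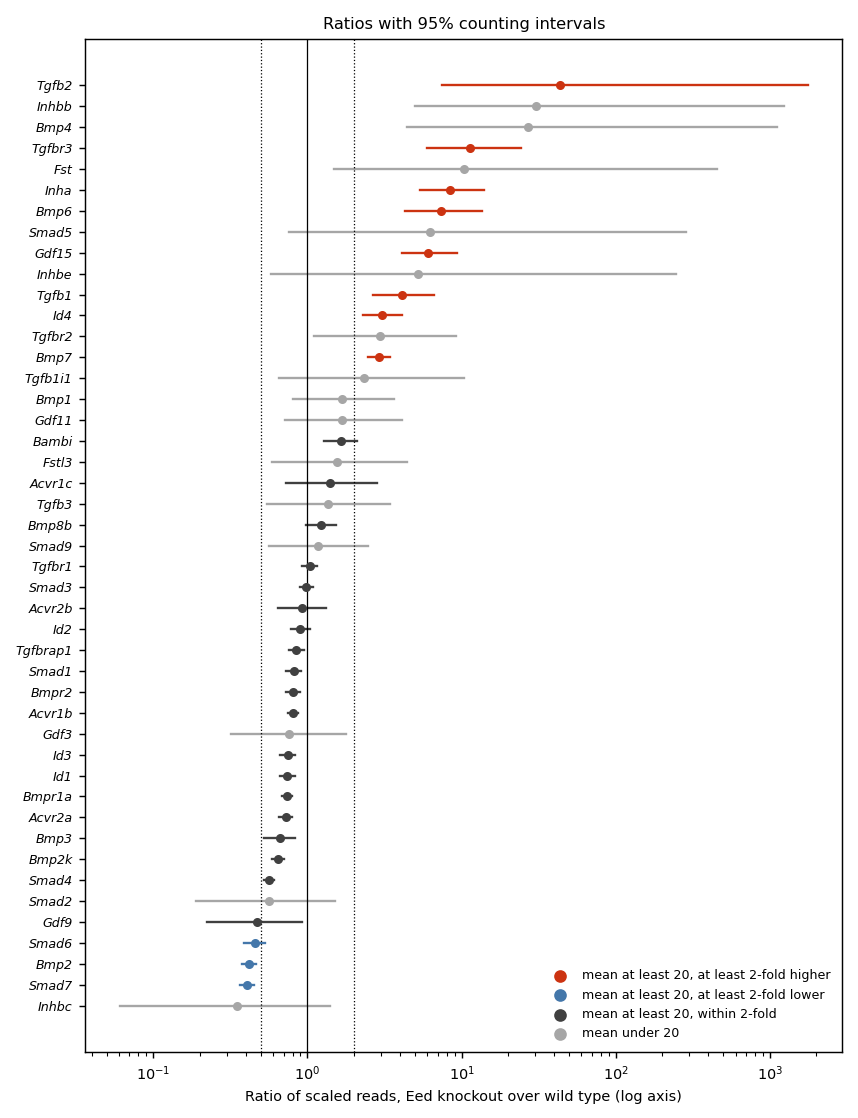
Ratio of scaled reads, Eed knockout over wild type, on a log axis for the 45 members with more than 3 reads in at least 1 library and reads in both; bars are 95% counting intervals and dotted lines mark 2-fold in either direction. Bmp2, Smad6 and Smad7 have narrow bars below 1, and Tgfb2, Inhbb and Bmp4 have wide bars because each had 1 wild-type read.

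Of the secreted antagonists that the symbol rule takes, none with a row had a mean of at least 20. Grem1, a BMP antagonist of the muscle and stroma around crypts, had 0 and 1 reads, and Chrdl1 likewise 0 and 1. Fst, follistatin, which traps activin, had 1 and 10 reads, a ratio of 10.4 (1.48 to 452), against 5.73 in the authors' deposited table. Its relative Fstl3 had 8 and 12, and Bmper, a BMP-binding modulator, 0 and 4. BMP-binding proteins with other symbols were well read. Nbl1, an antagonist of the DAN family, had 475 and 403 reads, Twsg1, twisted gastrulation, 604 and 565, and Crim1 1085 and 650. These 3 were chosen after their values were seen, as the most read of their list, and all lay within 2-fold.

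Of 10 type I and type II receptors with a row, 7 had a mean of at least 20, and all 7 lay within 2-fold. Bmpr1a, the main type I receptor for BMP2 and BMP4, had 1844 and 1305 reads, 1.36-fold lower (1.26 to 1.46). Acvr1b, the activin type I receptor, had 1422 and 1099, 1.24-fold lower (1.15 to 1.34). The TGF-beta type I receptor Tgfbr1 had 579 and 573, a ratio of 1.03 (0.917 to 1.16). Acvr1c, a type I receptor for Nodal and activin B, had 17 and 23 reads with an interval that includes 1.

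Among type II receptors, Acvr2a had 1023 and 709 reads, 1.38-fold lower (1.26 to 1.53). Bmpr2 had 910 and 705, 1.24-fold lower (1.12 to 1.37), and Acvr2b 70 and 62, with an interval that includes 1. Small downward ratios of this size were common: a log2 ratio below 0 was seen in 66.6% of the 8115 genes at a mean of 100 or more and in 16 of 22 members, with medians of -0.16 and -0.31. Scaling to the library totals would shift log2 ratios up by 0.18. Tgfbrap1, which binds inactive TGF-beta receptors, had 786 and 640 reads, 1.18-fold lower (1.06 to 1.31).

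Tgfbr2, the obligate type II receptor for TGF-beta, had 6 and 17 reads, a ratio of 2.95 (1.11 to 9.15) at a mean of 12.6. Acvr1 had 1 and 0 reads and the endothelial receptor Acvrl1 0 and 1. Counts this low need care in the reading, since genes with several RefSeq transcripts had fewer reads in this table. The median wild-type count was 96 over 10152 genes with 1 RefSeq transcript and 39 over 6846 genes with 2 or more. Tgfbr2 has 2, Smad2 and Smad5 have 3 each, and Acvr1 and Acvrl1 have 5 or more, although Smad4 with 4 had the most wild-type reads of any member. The part of transcript number in any single count was not tested.

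Of the coreceptor and the pseudoreceptor, the coreceptor was called higher. Tgfbr3, betaglycan, which presents TGF-beta2 and inhibin to their receptors, had 10 and 109 reads (ratio 11.4, interval 5.95 to 24.4). Genes for its ligands, Tgfb2 and Inha, were also called higher. Bambi, a pseudoreceptor that blocks the type I receptor, stayed within 2-fold at 111 and 175 reads (ratio 1.64, interval 1.29 to 2.10).

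Of the Smads with a mean of at least 20, both inhibitory ones were called lower, and Smad1, Smad3 and Smad4 lay within 2-fold. Smad7, the inhibitor that recruits ubiquitin ligases to the TGF-beta receptor, had 1283 and 502 reads, 2.45-fold lower (2.21 to 2.72). Smad6, the inhibitor that acts mainly on BMP signalling, had 548 and 239 reads, 2.20-fold lower (1.89 to 2.57). Among the 8115 genes at a mean of 100 or more, 1.36% had a lower log2 ratio than Smad7, 1.42% than Bmp2 and 2.02% than Smad6. The call for Smad6 was lost under scaling to the library totals and under scaling by the median ratio of well-read genes (mean 100 or more).

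Smad4, the shared partner of both branches, had 2226 and 1201 reads, 1.78-fold lower (1.66 to 1.91), short of the 2-fold limit. Smad1, the BMP-regulated Smad read most, had 793 and 618, 1.23-fold lower (1.11 to 1.37). Smad3, of the TGF-beta branch, had 964 and 911, a ratio of 0.985 (0.899 to 1.08). Smad9 had 16 and 18 reads. Smad2 with 13 and 7, and Smad5 with 1 and 6, had intervals that include 1, and a second Smad5 row held 0 and 1. Per length, Smad4 stood highest among the Smads in both libraries, at 644 and 362 normalized reads per kilobase, and Smad7 went from 294 to 120.

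**Figure D3:**
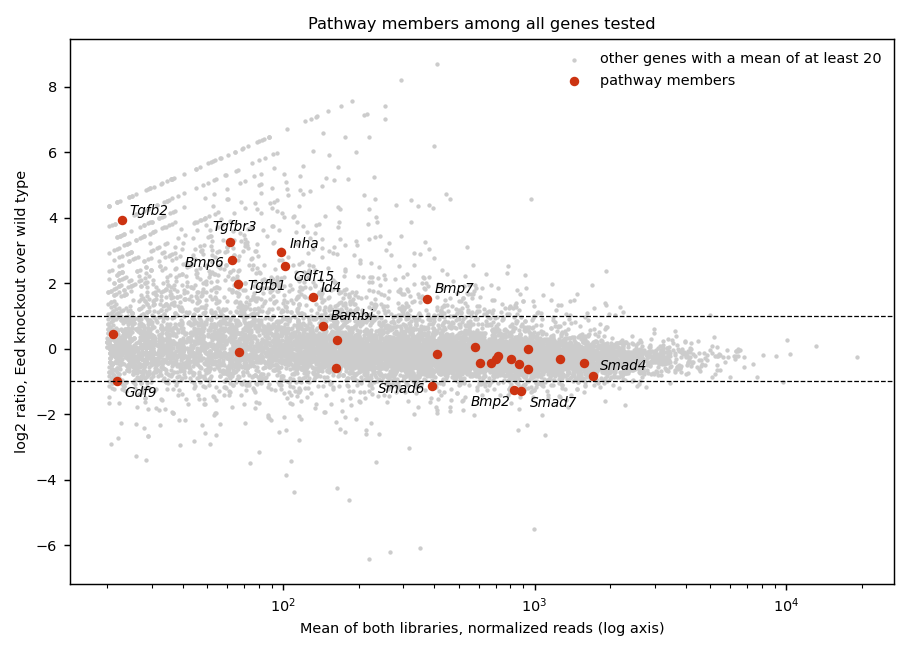
Log2 ratio, Eed knockout over wild type, against the mean of both libraries in normalized reads (log axis) for 10879 genes (grey) and the 30 pathway members among them (red); dashed lines mark a log2 ratio of 1 and -1. The called higher members lie at means from 22.9 to 375 and the called lower members at 391 to 886.

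The window of Smad6 is printed because it holds a Smad-binding palindrome, and those of Id4 and Id2 because they are BMP target genes that differed in ratio. Capitals mark 2 motifs, GTCTAGAC, the palindromic Smad-binding element, and GGCGCC, the GC-rich form that Smads also bind; each reads the same on both strands and they do not overlap. The windows, in GRCm38.p6 and from 250 bases before to 50 after the RefSeq start, are chr9:64022010-64022309 (-) for Smad6, chr13:48260866-48261165 (+) for Id4 and chr12:25096043-25096342 (-) for Id2.
Smad6: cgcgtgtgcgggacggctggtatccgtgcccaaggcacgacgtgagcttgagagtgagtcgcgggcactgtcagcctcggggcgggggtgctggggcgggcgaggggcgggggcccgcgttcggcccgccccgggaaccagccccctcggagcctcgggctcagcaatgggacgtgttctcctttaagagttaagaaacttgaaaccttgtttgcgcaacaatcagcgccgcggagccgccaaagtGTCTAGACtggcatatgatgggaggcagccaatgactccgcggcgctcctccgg
Id4: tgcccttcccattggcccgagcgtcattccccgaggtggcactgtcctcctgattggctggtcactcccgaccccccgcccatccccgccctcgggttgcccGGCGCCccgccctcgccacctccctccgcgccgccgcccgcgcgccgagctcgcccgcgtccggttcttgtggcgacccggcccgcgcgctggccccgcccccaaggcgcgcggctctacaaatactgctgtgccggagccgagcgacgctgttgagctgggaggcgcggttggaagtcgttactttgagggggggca
Id2: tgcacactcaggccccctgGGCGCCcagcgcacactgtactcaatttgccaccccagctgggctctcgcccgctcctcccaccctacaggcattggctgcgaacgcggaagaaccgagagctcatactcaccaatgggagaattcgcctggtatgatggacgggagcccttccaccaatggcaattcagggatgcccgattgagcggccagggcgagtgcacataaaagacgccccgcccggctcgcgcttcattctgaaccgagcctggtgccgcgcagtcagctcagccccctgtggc

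GTCTAGAC occurred in 1 of 42 member windows (2.38%), that of Smad6, where it begins at base 247 of the window. Of all 32851 windows 0.213% held it, and of the windows of genes averaging 20 or more reads 0.263%. A member share that rests on 1 match cannot be compared with these. No window was at hand for the called members Smad7, Bmp2, Bmp7 and Tgfbr3, or for Id1 and Smad4, so these were not searched. GGCGCC occurred in 12 of 42 member windows (28.6%), including both Id4 and Id2, and in 11.9% of all windows. For genes averaging 20 or more reads, it occurred in 8 of 25 member windows (32%) and in 20.9% of all such windows. Id4 was called higher and Id2 was not, and both windows hold GGCGCC. The window of Id3, which is not printed and was not called either, holds neither motif. A match is a description of letters and not of binding.

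The Id genes, helix-loop-helix proteins that block differentiation factors, split between Id4 and the rest. Id1 had 785 and 558 reads, 1.35-fold lower (1.21 to 1.51), and Id3 had 708 and 506, 1.34-fold lower (1.20 to 1.51). Id2 had 439 and 379 reads, a ratio of 0.90 (0.782 to 1.03). Id4, the member best known from the nervous system and stem cells of other epithelia, had 66 and 193 reads, a ratio of 3.05 (2.29 to 4.09). Per length, Id1 stood at 823 and 610 normalized reads per kilobase and Id4 at 16.8 and 51.2, so Id4 remained the least abundant Id gene in the knockout library.

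Of the members that match by name alone, Bmp2k had 1168 and 723 reads, 1.55-fold lower (1.41 to 1.70). Bmp1, represented by a non-coding RefSeq transcript, had 13 and 21 reads, and Tgfb1i1 had 4 and 9. Both had intervals that include 1.

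Other genes of the pathway, taken from 4 lists by role, were counted in the same way. Of 59 with a row, 35 had a mean of at least 20, and 6 of these were called higher (17.1%) and 1 lower (2.86%), where all genes gave 11.2% and 3.58%. Of the 6 higher genes, 3 had a wild-type level under 20 and so passed the mean only through the knockout library. Over every row, on the floor of 3 reads used above, 12 of the 59 lay 2-fold or more above the wild type and 3 that far below it (20.3% and 5.08%), where all genes gave 14.8% and 4.81%. The median log2 ratio of the 35 was -0.18. The group of ligands and inhibitors held 3 of the higher genes among 7. Htra1, a protease that cleaves TGF-beta family proteins, had 2 and 147 reads (ratio 76.6, interval 20.8 to 638). The others were Fstl4 with 15 and 65 reads, and Lefty1, a Nodal inhibitor, with 20 and 51. The coreceptor group held 1 of 6, Rgma, a BMP coreceptor, at 20 and 108 reads (ratio 5.63, interval 3.47 to 9.58).

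Among genes of TGF-beta latency and activation, 2 of 6 with a mean of at least 20 were higher (33.3%), where all genes gave 11.2%. Over all 15 with a row, 3 were at least 2-fold higher (20%) and 1 lower (6.67%), where all genes gave 14.8% and 4.81%. Ltbp3, which tethers latent TGF-beta to the matrix, had 9 and 103 reads (ratio 11.9, interval 6.04 to 26.8) and passed the mean only through the knockout library. Thbs1, thrombospondin 1, an activator of latent TGF-beta, had 64 and 463 reads, a ratio of 7.54 (5.80 to 9.95). Of 16 intracellular regulators of Smad signalling, none was higher and 1 was lower, Hipk2, a kinase that binds Smad co-repressors, at 80 and 30 reads (ratio 0.391, interval 0.248 to 0.601).

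Of the genes known to respond to TGF-beta or BMP, 10 of 20 with a row had a mean of at least 20, with a median log2 ratio of 0.04. Of these, 3 were called higher and none lower, and all 3 passed the mean only through the knockout library. Over all 20 rows, 7 lay 2-fold or more above the wild type (35%) and none that far below it, where all genes gave 14.8% and 4.81%. The 3 called were the homeobox genes Msx1, with 4 and 102 reads, and Msx2, with 3 and 56, both BMP targets in embryos, and the collagen gene Col1a1, also on the fibroblast list, with 1 and 155. The TGF-beta-induced gene Tgfbi had 2674 and 1350 reads, 1.90-fold lower (1.78 to 2.03). Junb had 1411 and 944, 1.43-fold lower (1.32 to 1.56), and the cell cycle inhibitor Cdkn2b 767 and 713, with an interval that includes 1. These 3 were picked after their values were seen, as the most read of the list. The summed level of the list was 5444 and 4116 normalized reads.

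**Figure D4:**
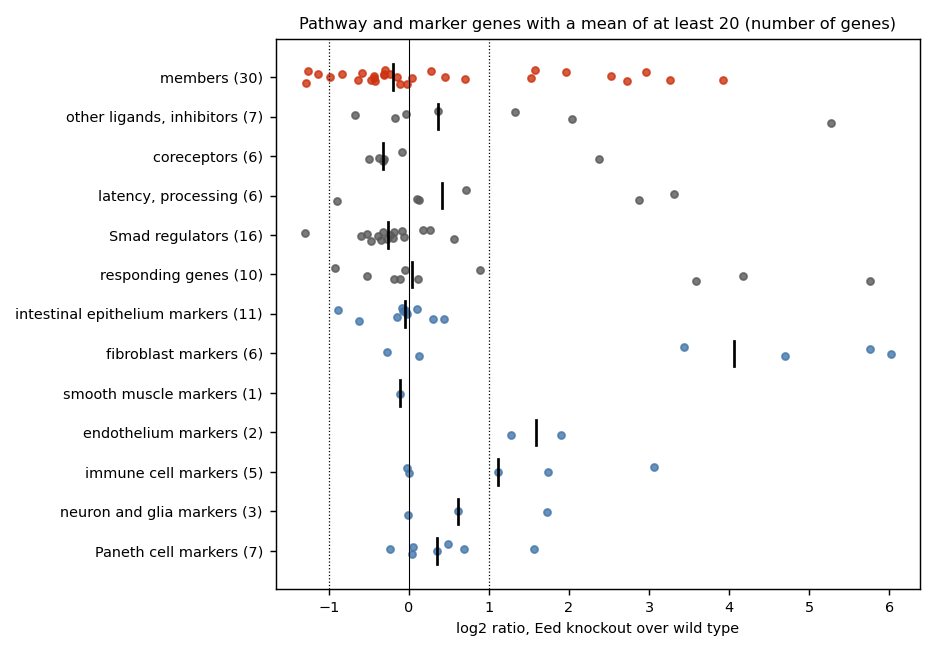
Log2 ratio, Eed knockout over wild type, of genes averaging 20 or more normalized reads (points) and their medians (bars) for the members, the other pathway lists, the responding genes and the marker lists; dotted lines mark 2-fold. The 16 Smad regulators lie within 2-fold except Hipk2, with a median of -0.26, while 4 of 6 fibroblast markers lie above 3.

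Markers of several other cell types were higher in the same library as the higher ligands. Of 12 fibroblast markers with a row, 6 had a mean of at least 20 and 4 of these were higher (66.7%), all collagens, where all genes gave 11.2%. All 4 had a wild-type level under 20 and so passed the mean only through the knockout library. Col1a2 had 0 and 124 reads, Col3a1 6 and 198 and Col6a1 3 and 50, beside the Col1a1 values above, and the summed level of the list was 330 and 840 normalized reads. Over all 12 rows, 7 lay 2-fold or more above the wild type (58.3%), where all genes gave 14.8%. Under the mean of 20, Lum had 0 and 16 reads, Foxf1 1 and 8, Pdgfra 1 and 0 and Dcn 0 and 1, while Vim had 265 and 210. Pdgfra has 5 RefSeq transcripts and Dcn 2, the kind of gene that had fewer reads in this table. Fibroblast markers at 0 were Col1a2, Dcn and Lum in the wild type and Pdgfra in the knockout. Immune markers summed to 292 and 707, with Lyz2 at 27 and 230 reads, Csf1r at 28 and 94 and Cd14 at 115 and 240 called higher. The T cell gene Cd3e had 82 and 79 reads, Cd68 32 and 30, and the pan-leukocyte gene Ptprc, with 3 RefSeq transcripts, 8 and 12. Endothelial markers summed to 58.8 and 163, with Plvap (12 and 48 reads) and Vwf (22 and 54) called higher. Plvap had a wild-type level under 20 and passed the mean only through the knockout library. Neuron and glia markers summed to 57.8 and 116, with Ret called higher at 20 and 68, and smooth muscle markers to 121 and 127. Paneth cell markers, an epithelial lineage of the crypt base, summed to 5875 and 6892, with Wnt3 called higher at 183 and 522 reads. Over every row, 3 of 8 immune, 4 of 6 endothelial and 1 of 5 neuron and glia markers lay 2-fold or more above the wild type. So did 3 of 7 smooth muscle and 1 of 7 Paneth cell markers, where all genes gave 14.8%. In bulk RNA more cells of a type and more RNA per cell cannot be told apart. The part of these cell types in Tgfb1, Tgfb2, Bmp4 or Tgfbr3 was not tested.

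The authors' deposited table had an adjusted p below 0.05 for 167 higher rows (0.89% of 18766) and 16 lower rows (0.0853%). None of the 56 member rows was among them. In the authors' deposited table the lowest adjusted p of a member was 0.172, for Inha, followed by 0.318 for Tgfbr3 and 0.387 for Gdf15. A binomial test of the recovered reads (exact, Benjamini-Hochberg adjusted p below 0.05) sets 1 library against another and not the genotypes. It called 9 of the 30 members higher and 15 lower. The same test called 22.6% of all 10879 genes higher and 37.1% lower. Restricted to genes with 1 RefSeq transcript, the rule of size called 5 of 20 members higher and 3 lower, against 12.3% and 3.78% of 6610 genes.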

How the data were processed

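Total RNA of small intestine crypts was made into TruSeq RNA libraries, per the labels' protocols. TopHat, DESeq and mm9 are named in the submitters' processing notes, without versions. Neither the counting tool nor strand use is given in the sources used here. What the authors deposited is normalized signal (reads divided by a size factor) for 18766 RefSeq transcripts, per the file headers. Further deposited columns give the authors' ratio, its log2 and p-values.

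Within 1e-06, 100% of the values of both libraries were whole multiples of the lowest value. No row lacked reads in both libraries, so 1 added read was inferred and taken off for printed reads. RefSeq names (GRCm38.p6) matched 98.6% of rows, and GENCODE vM21 lengths covered 97.7%. For a symbol with several rows, the row with the highest mean was used. Ratios carry Clopper-Pearson intervals (exact, 95%) given the summed reads. They and the floor of 3 reads cover counting error only, as PCR copies cannot be recognised without molecular identifiers. With 1 library per group there was no test of genotype. The call rule used a pseudocount of 1.

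Members and lists were chosen with earlier results of these data known. Values were to be given for each member that was called, had a mean of at least 100 or was an Id gene, and for up to 4 called genes per pathway list and 3 per marker list, with the further list genes picked after their values were seen; other members are named to account for the 55, except 1 that is not reported here. Alternatives were other pseudocounts, scalings, filters, thresholds and summed rows. In simulated data with counting error only (10879 genes, 200 changed), 3-fold changes were called in 96%, 1.5-fold changes in 0%, and 6 of 10679 unchanged genes were called. Software was Python 3.11.15 with pandas 2.3.3, NumPy 2.4.6, SciPy 1.17.1 and, for figures, Matplotlib 3.10.9.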

Additional observations from a re-analysis of the deposited data

How the results depend on the processing

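No paired analysis was possible because each genotype has 1 library, and for the same reason no library could be left out. All 8 higher members stayed higher and all 3 lower members stayed lower in sign under the 11 alternatives with values per gene. These leave out the binomial test and the restriction to genes with 1 RefSeq transcript. That result was largely fixed in advance, since filters and thresholds leave a gene's ratio unchanged and a pseudocount cannot turn its sign. The largest shift from a scaling was 0.18 in log2, against a smallest called size of 1.13. Calls were lost for Smad6 under 2 scalings, for Tgfb2 at a mean of at least 50, and for Bmp2, Bmp7, Id4, Smad6 and Smad7 at 3-fold. Gdf9 was called lower with a pseudocount of 0.5 and with 1 read taken off every value, an alternative added after seeing the data.

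With no filter on low values, 16 members were higher, and the members' median log2 ratio turned from -0.19 to 0.38. At a mean of at least 10 the median turned to 0.011. The number of members lower was 0 at 3-fold and 15 by the exact binomial test, which was chosen after the data were seen. Among genes with 1 RefSeq transcript, also chosen afterwards, 5 members were higher, as Gdf15, Inha and Tgfb2 have 2 each and left the set.

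Of all genes, 1217 were higher and 390 lower. The higher count was 778 at a mean of at least 50, 2825 with no filter, 770 at 3-fold, 811 with 1 RefSeq transcript and 2464 by the binomial test. The lower count was 237 under library totals, 246 under the median ratio, 726 with no filter, 107 at 3-fold, 250 with 1 RefSeq transcript and 4036 by the binomial test. The share of higher among called genes, 75.7%, was 85.9% under library totals and 85.2% under the median ratio.

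For pathway genes outside the symbol rule, 6 were higher and 1 lower. With no filter there were 11 and 2. The lower count was 0 at 3-fold, 0 with 1 RefSeq transcript and 15 by the binomial test. The causes were not tested. Among the 25 members under a mean of 20, counting error leaves wide intervals.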
